A study of Arabidopsis thaliana with 6 samples.

Results

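The nuclear genes of plastid ribosomal proteins are described here, 39 of the 33532 gene identifiers in the expression table. They were taken as a fixed list of identifiers for bacterial-type ribosomal proteins of the plastid. These are named PRPL for the large subunit, PRPS for the small subunit and PSRP for plastid-specific ribosomal proteins. Measured values were not a criterion of the list, but earlier results of these data were known when it was chosen. The samples were whole Arabidopsis thaliana seedlings of the Col-0 ecotype and wild-type genotype. They stayed on 1/2 MS medium for 10 days, with 5 µg/mL doxycycline (3 libraries) or with none (3 control libraries). Doxycycline is a tetracycline antibiotic, and the series title places the study under impaired mitochondrial translation. Plastids, like mitochondria, carry ribosomes of the bacterial type.

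Plastid ribosomes descend from those of the cyanobacterial ancestor of plastids and make the core subunits of the photosystems, the ATP synthase and the large subunit of Rubisco. Their proteins come from both genomes: some are encoded in the plastid, but most are nuclear genes translated in the cytosol and imported. Tetracyclines bind the small subunit of bacterial-type ribosomes and block entry of the loaded transfer RNA. Roles of single proteins given below are those known from the Escherichia coli ribosome, unless a plant role is named.

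Transcripts of all 39 genes had a higher mean in doxycycline seedlings than in control seedlings. The median log2 difference was 1.08, where the median over the 19035 genes tested was -0.29, and single members ran between 0.20 and 1.84. Each library pools shoot and root of whole seedlings, so a change in the number of cells of a type and a change in RNA per cell cannot be told apart. Model differences above 0 were found in 39 of 39 members and in 30.2% of all genes tested, and differences of at least 1 in 22 members and in 3.55% of all genes. In 31 of the 39 every doxycycline library lay above every control library, as did 9.59% of all genes tested. None of the 39 lay below every control, as 25.7% of all genes did. None of these differences passed the test across all genes. With limma on log2(FPKM + 1), 0 of the 39 reached a Benjamini-Hochberg adjusted p of 0.05, as did 0 of all 19035 genes (0.0%). At an unadjusted p under 0.05 there were 26 members, all higher, while 6.83% of all genes were higher at that level. FPKM values are fragments counted on a transcript, scaled to its length and to the total of the library.

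The control libraries lay far apart in these genes. Over the 39 members the range of the 3 control libraries had a median of 1.39 on the log2(FPKM + 1) scale, and that of the 3 doxycycline libraries 0.19. Control 2 was the lowest of all 6 libraries in 39 of 39 members, and in 38 the controls stood in the order control 1, control 3, control 2 from high to low. That order was found in 9.87% of all genes tested. The exception was PRPL12A, with control 3 marginally above control 1. Doxycycline libraries therefore lay a median of 1.74 above control 2, 1.11 above control 3 and 0.30 above control 1 over the members, where all genes had medians of -0.54, -0.30 and -0.00. Control 1 itself lay a median of 1.39 above control 2 in these genes, which is wider than its distance from the doxycycline libraries. All 3 doxycycline libraries exceeded control 1 in 31 members and in 37.0% of all genes tested.

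**Figure D1:**
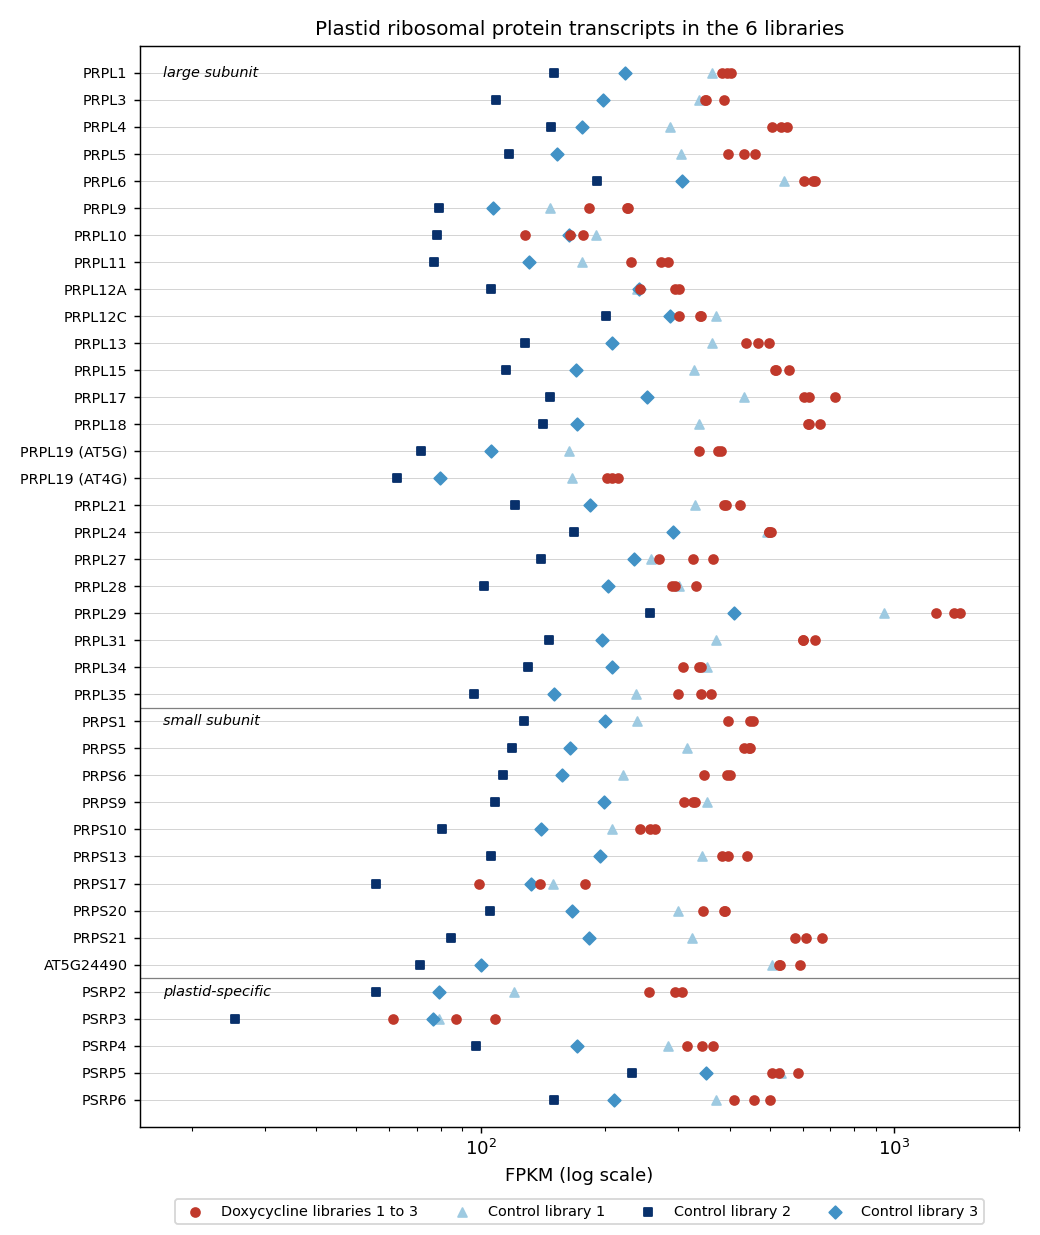
FPKM on a log axis for each of the 39 genes, with 1 point per library, doxycycline libraries in red circles and controls 1 to 3 as triangles, squares and diamonds. Control 2 is the lowest point in all 39 rows, and in 31 rows all red circles lie right of all control points.

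Whole-table properties set the frame for these values. Estimated depth was 20600000 to 20900000 fragments in the doxycycline libraries and 18600000 to 21900000 fragments in the controls. At that depth the lowest value of a member in any library stood for about 440 fragments, which puts its counting error near 4.77%. Across all genes tested, the doxycycline libraries correlated with each other at 0.988 to 0.992 and the controls at 0.831 to 0.895, while control 1 and the doxycycline libraries had correlations of 0.961 to 0.964 (across genes, which are not replicates). All 39 members passed the minimum mean of 1 FPKM and lay between the 91.2 and 99.6 percentiles of mean level.

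Together the 39 transcripts summed to 16956, 16224 and 15454 FPKM in doxycycline libraries 1 to 3, against 12364, 4613 and 7366 FPKM in control libraries 1 to 3. As a share of the table's summed FPKM this was 2.08%, 2.01% and 1.90% with doxycycline and 1.56%, 0.648% and 0.999% in controls. Both sums were separated between the groups, with control 1 nearest to the doxycycline libraries.

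The 24 large-subunit genes had a median log2 difference of 1.07. Every doxycycline library exceeded every control in 9.59% of all genes tested and in 20 of these 24. The farthest separated was the PRPL19 gene AT5G47190, for a protein at the interface of the subunits. It stood at 374, 380 and 336 FPKM in doxycycline seedlings and at 163, 71.8 and 106 FPKM in control libraries 1 to 3. Its lowest doxycycline library was thus more than 2-fold above its highest control. The log2 difference was 1.75 (SE 0.31), with an adjusted p of 0.121 (limma). Many genes shared that value, the lowest adjusted p in the table, and by unadjusted p this gene ranked 111 of the 19035 tested.

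PRPL4 (AT1G07320), whose protein lines the exit tunnel of the growing chain, stood at 532, 549 and 507 FPKM in doxycycline seedlings and at 286, 148 and 176 FPKM in control seedlings, a log2 difference of 1.43 (SE 0.28, adjusted p = 0.121). PRPL18 (AT1G48350), whose Escherichia coli counterpart binds the smaller ribosomal RNA of the large subunit there, stood at 659, 617 and 621 FPKM against 337, 141 and 171 FPKM. Its log2 difference was 1.65 (SE 0.34, limma adjusted p = 0.122). PRPL5 (AT4G01310), whose counterpart binds the same RNA, stood at 461, 395 and 433 FPKM in doxycycline seedlings and 304, 117 and 153 FPKM in control seedlings (log2 difference 1.28, SE 0.36, adjusted p = 0.138). In these 3 genes the groups did not overlap, and the controls spread more widely than the doxycycline libraries.

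PRPL31 (AT1G75350), which helps bridge the subunits, stood at 641, 601 and 601 FPKM in doxycycline seedlings and at 371, 146 and 196 FPKM in control seedlings, a log2 difference of 1.48 (SE 0.36, adjusted p = 0.129). PRPL15 (AT3G25920), an assembly protein, stood at 555, 517 and 513 FPKM against 328, 115 and 170 FPKM (log2 difference 1.50, SE 0.38, adjusted p = 0.132). PRPL9 (AT3G44890) differed less, with 227, 225 and 183 FPKM in doxycycline seedlings and 147, 79.4 and 107 FPKM in control seedlings (log2 difference 0.96, SE 0.26, adjusted p = 0.135). All doxycycline values of these genes were above all control values. The most abundant transcript of the family was PRPL29 (AT5G65220), whose protein sits at the tunnel exit where nascent chains meet their helpers. It stood at 1440, 1262 and 1394 FPKM in doxycycline seedlings and at 941, 256 and 409 FPKM in control seedlings, which gave a log2 difference of 1.56 (SE 0.48, adjusted p = 0.142).

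The 4 genes of the stalk that recruits translation factors had a median log2 difference of 0.42. PRPL11 (AT1G32990), at the base of the stalk, stood at 283, 272 and 231 FPKM in doxycycline seedlings and at 176, 76.9 and 131 FPKM in control seedlings, with no overlap (2.14-fold on the log2(FPKM + 1) scale, adjusted p = 0.138). PRPL10 (AT5G13510), which anchors the stalk, had the lowest log2 difference of the family at 0.20 (SE 0.35, adjusted p = 0.710), with 164, 177 and 128 FPKM in doxycycline libraries and 190, 78.5 and 163 FPKM in control seedlings. Its groups overlapped, and of the controls its doxycycline mean exceeded control 2 alone. The sign of this difference turned to -0.18 without control 2.

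PRPL12, the mobile stalk protein itself, has neighbouring gene copies whose coding sequences are 93.4% identical, so reads could be shared or split between them. PRPL12A (AT3G27830) stood at 294, 302 and 243 FPKM in doxycycline seedlings and at 239, 106 and 241 FPKM in control seedlings (log2 difference 0.60, SE 0.35, adjusted p = 0.286). PRPL12C (AT3G27850) stood at 341, 339 and 302 FPKM against 371, 201 and 287 FPKM (log2 difference 0.23, SE 0.27, adjusted p = 0.571). Control 1 exceeded all doxycycline libraries in PRPL12C, while PRPL12A was separated by 0.01 on the log2 scale. The copy between them, RPL12-B (AT3G27840), was listed at 0 in all 6 libraries.

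The 2 PRPL19 copies share 82.6% of aligned coding bases and could be compared side by side. AT4G17560 stood at 215, 202 and 207 FPKM in doxycycline seedlings and 166, 62.8 and 79.7 FPKM in control seedlings, a log2 difference of 1.14 (SE 0.35, adjusted p = 0.143). In both copies all doxycycline libraries exceeded all controls. The doxycycline mean lay 1.15 above control 1 in AT5G47190 and 0.33 above it in AT4G17560. The difference between the copies was not tested.

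The remaining large-subunit genes had log2 differences between 0.63 and 1.35. Highest was PRPL17 (AT3G54210), at 648 ± 61.5 FPKM in doxycycline seedlings and 277 ± 144 FPKM in control seedlings (SD, n = 3 each). Next came PRPL35 (AT2G24090) at 1.14, PRPL13 (AT1G78630) at 1.13 and PRPL21 (AT1G35680) at 1.04. PRPL6 (AT1G05190) had a difference of 0.98, PRPL3 (AT2G43030) 0.89 and PRPL24 (AT5G54600) 0.78. PRPL24, an early assembly protein, stood at 497, 496 and 503 FPKM in doxycycline seedlings against 492, 168 and 292 FPKM in control seedlings, so that its separation from control 1 was 0.01 on the log2 scale. PRPL1 (AT3G63490) had 0.77 and PRPL27 (AT5G40950) 0.63, both separated. PRPL28 (AT2G33450) at 0.72 and PRPL34 (AT1G29070) at 0.63 overlapped with control 1 but not with the other controls.

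The 10 small-subunit genes had a median log2 difference of 1.17. Separated above the controls were 9.59% of all genes tested and 8 of these 10. PRPS21 (AT3G27160), named GHS1 for a glucose-hypersensitive mutant, had the highest difference of the family at 1.84 (SE 0.46, adjusted p = 0.131). It stood at 668, 610 and 575 FPKM in doxycycline seedlings and at 324, 84.7 and 183 FPKM in control seedlings. The doxycycline mean lay 0.92 above control 1 and 2.85 above control 2 on the log2 scale.

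PRPS6 (AT1G64510), of the platform of the small subunit, stood at 401, 394 and 347 FPKM in doxycycline seedlings and 220, 113 and 157 FPKM in control seedlings (log2 difference 1.27, SE 0.28, adjusted p = 0.126). PRPS1 (AT5G30510), which holds messenger RNA, stood at 455, 447 and 395 FPKM against 238, 127 and 200 FPKM (log2 difference 1.24, SE 0.28, adjusted p = 0.126). PRPS5 (AT2G33800), near the messenger entry, stood at 447, 432 and 444 FPKM in doxycycline seedlings and 315, 119 and 164 FPKM in control seedlings (log2 difference 1.26, SE 0.36, adjusted p = 0.138). All 3 had every doxycycline library above every control. PRPS20 (AT3G15190), which binds ribosomal RNA early in assembly, stood at 389, 387 and 345 FPKM in doxycycline seedlings and at 299, 105 and 166 FPKM in control seedlings (2.14-fold, adjusted p = 0.154). PRPS10 (AT3G13120) stood at 257, 264 and 243 FPKM against 208, 80.3 and 140 FPKM in control seedlings (log2 difference 0.93, SE 0.34, adjusted p = 0.167). These too were separated. PRPS13 (AT5G14320), in the head of the subunit, had a log2 difference of 1.08.

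AT5G24490, annotated as a small-subunit ribosomal protein without saying whether it is plastid-specific, differed most among the controls. It stood at 529, 525 and 591 FPKM in doxycycline seedlings and at 506, 71.1 and 100 FPKM in control libraries 1 to 3. Control 1 was thus close to the doxycycline libraries, while controls 2 and 3 lay far below them. Its control range of 2.81 on the log2 scale was set against a family median of 1.39, and the log2 difference of 1.83 had an SE of 0.68 (adjusted p = 0.169). The doxycycline mean lay 0.11 above control 1, 2.93 above control 2 and 2.44 above control 3.

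PRPS9 (AT1G74970) and PRPS17 (AT1G79850) overlapped with the controls. PRPS9, whose tail touches transfer RNA in the ribosome, stood at 325, 310 and 329 FPKM against 352, 108 and 198 FPKM, with control 1 above all doxycycline libraries. PRPS17, an early assembly protein, had 139, 179 and 99.0 FPKM in doxycycline seedlings and 149, 55.9 and 132 FPKM in control seedlings. Its log2 difference of 0.38 (SE 0.41, adjusted p = 0.545) was the lowest of the small subunit and turned to -0.06 without control 2. The doxycycline libraries themselves spread by 0.85 in PRPS17, against the family median of 0.19.

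Plastid-specific ribosomal proteins, which the bacterial ribosome mostly lacks, had a median log2 difference of 1.00 over 5 genes. PSRP2 (AT3G52150), an RNA-binding protein with recognition motifs, stood at 306, 295 and 255 FPKM in doxycycline seedlings and at 120, 55.6 and 79.2 FPKM in control seedlings. All doxycycline libraries were at least 2-fold above all controls, and the log2 difference was 1.80 (SE 0.30, adjusted p = 0.121). PSRP2 and the PRPL19 gene AT5G47190 were the 2 members separated by that much, as were 0.179% of all genes tested.

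PSRP6 (AT5G17870), of the large subunit, stood at 501, 457 and 409 FPKM in doxycycline seedlings and at 371, 150 and 210 FPKM in control seedlings (log2 difference 1.00, SE 0.35, adjusted p = 0.158). PSRP4 (AT2G38140), of the small subunit, stood at 364, 315 and 342 FPKM against 284, 97.1 and 171 FPKM (log2 difference 1.01, SE 0.38, adjusted p = 0.171). Both were separated, with control 1 as the nearest control. PSRP5 (AT3G56910) stood at 586, 527 and 506 FPKM in doxycycline seedlings and 532, 232 and 351 FPKM in control seedlings (log2 difference 0.61, SE 0.33, adjusted p = 0.263), and control 1 lay within the doxycycline values. PSRP3 (AT1G68590), the least abundant member, stood at 87.0, 108 and 61.3 FPKM against 79.1, 25.4 and 76.4 FPKM (log2 difference 0.63, SE 0.46, adjusted p = 0.384). Its groups overlapped, and doxycycline library 3 lay below controls 1 and 3.

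**Figure D2:**
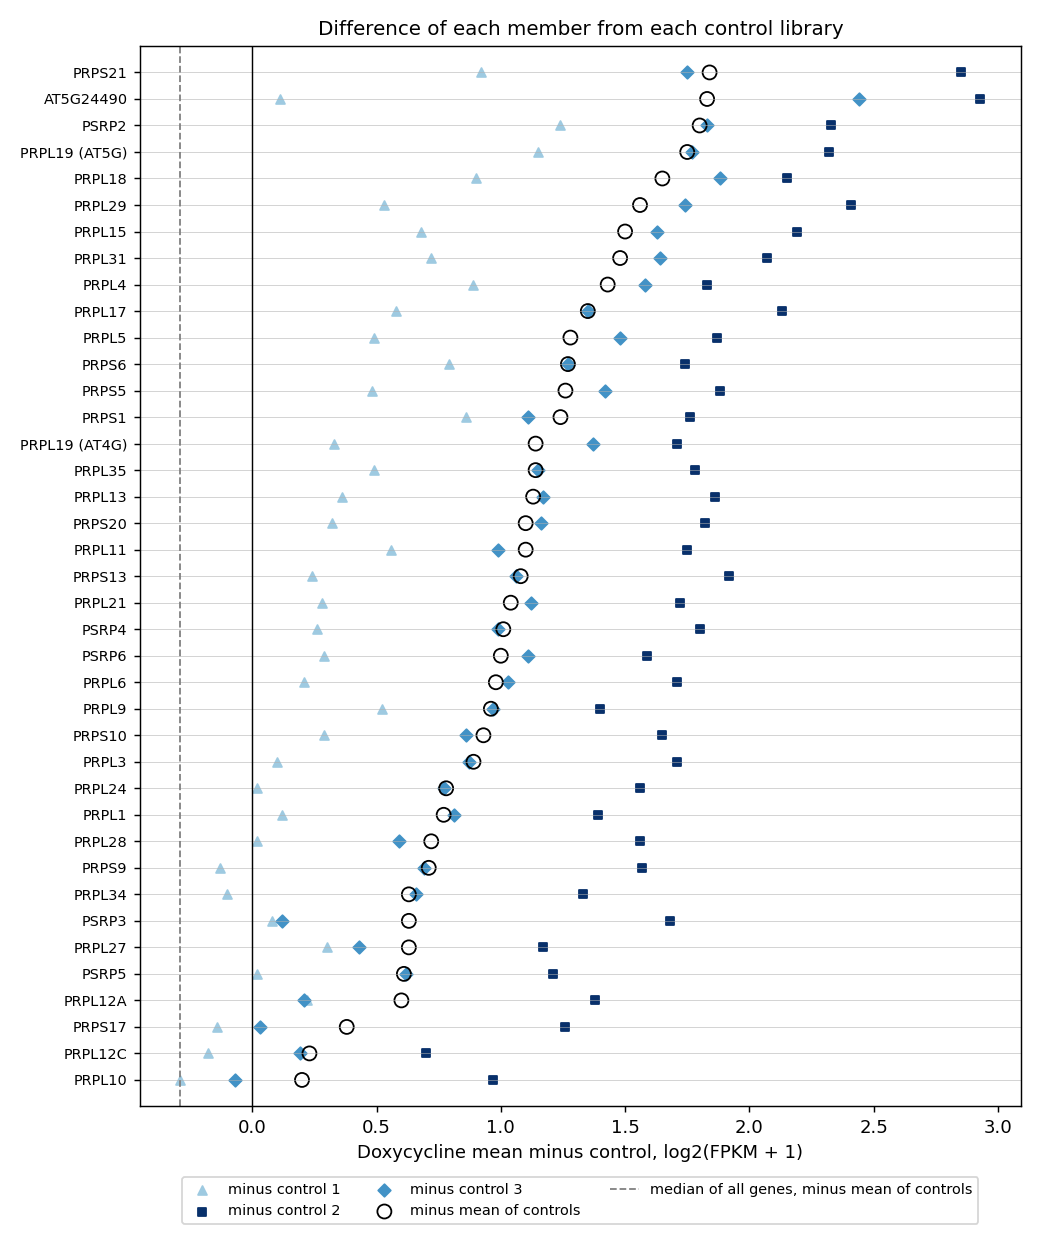
Mean of the doxycycline libraries minus each control library for the 39 genes on the log2(FPKM + 1) scale, ordered by the difference from the mean of the controls (open circles), with the median of all genes as a dashed line. Differences from control 2 (squares) run up to 2.93, those from control 1 (triangles) stay at or below 1.24, and 5 genes lie below 0 against control 1.

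Among the 8 members that overlapped, 5 overlapped with control 1 alone. Doxycycline means lay below control 1 in 5 members, below control 3 in PRPL10 alone and below control 2 in none. At the other end, 13 members lay at least 0.5 above control 1 and 2 at least 1 above it, namely PSRP2 and the PRPL19 gene AT5G47190. Library 3 was the lowest of the doxycycline libraries in 29 members, and library 1 in none. Matching shares of all genes were not taken for these counts, so they describe the members only. The doxycycline mean minus control 1 had a median of -0.00 over all genes tested. Difference and mean level were weakly related across the 39 members (Pearson r = 0.31, a description over genes that share all libraries). The summed FPKM of the small subunit was 0.366, 0.373 and 0.370 of that of the large subunit in doxycycline libraries 1 to 3, against 0.368, 0.314 and 0.337 in controls 1 to 3, and control 1 lay among the doxycycline values.

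The count of calls depended on control 1. When it was left out, 34 of the 39 members were higher at an adjusted p under 0.05 (limma), with log2 differences of 0.44 to 2.68 over all members, and 9.77% of all genes tested were higher at that level. The 5 members not called then were PRPL10, PRPL12A, PRPL12C, PRPS17 and PSRP3. In that fit 8637 of the 19035 genes passed, 1860 higher and 6777 lower. AT5G24490 had the highest member difference there, 2.68 (SE 0.20, limma adjusted p = 8.61e-04). The library left out is the control in which this gene stood at 506 FPKM, close to the doxycycline libraries. With all 6 libraries its difference was 1.83 (SE 0.68, limma adjusted p = 0.169). Leaving out any other library gave 0 calls among the members.

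**Figure D3:**
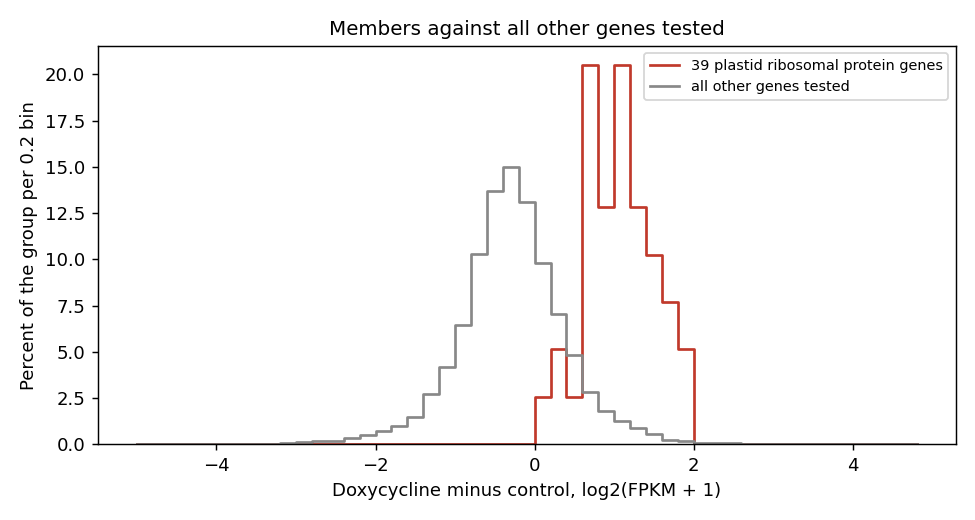
Distribution of log2 differences between doxycycline and control libraries for the 39 members (red) and all other genes tested (grey), as percent of each group per bin. The members occupy 0.20 to 1.84, where all genes have a median of -0.29.

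Scaling moved the level of the differences. Median-of-ratios scaling shifted all members upward by nearly the same amount, so it could not turn their sign. Under quantile normalization all members stayed above 0, with a lowest difference of 0.12. The median over all genes of -0.29 became 0.00 after median-of-ratios scaling and 0.01 after quantile normalization, and the members' median was then 1.41 and 0.98. Separated members numbered 28 and 22 under these scalings, beside 18.0% and 17.2% of all genes above every control. Genes below every control were 17.2% and 16.7% of all genes, and 0 members were among them in either case.

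In the reference annotation 9 members carry an EMBRYO DEFECTIVE name, given to genes whose loss stops embryo development. These had a median log2 difference of 1.13, against 1.03 for the other 30. Separated above the controls were 9.59% of all genes tested, 23 of the other 30 and 8 of the 9. The 9 were PRPL1, PRPL4, PRPL6, PRPL10, PRPL13, PRPL18, PRPL31, PRPS5 and PRPS13, and PRPL10 was the one that overlapped. The members lie on all nuclear chromosomes, with 12 on chromosome 1, 5 on chromosome 2, 11 on chromosome 3, 2 on chromosome 4 and 9 on chromosome 5.

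The 250 bases before each annotated gene start were searched on both strands for short elements known from plant promoters. Site II elements (TGGGCC or TGGGCT), known from promoters of cytosolic ribosomal protein and cell-division genes, were present in 14 of 39 members (35.9%), in 19.2% of 27443 protein-coding promoters and in 53.3% of 15 cytosolic ribosomal protein genes. I-box letters (GATAAG), known from light-regulated promoters, were present in 10 members (25.6%) and in 12.3% of all promoters. The telo-box (AAACCCTA) was found in 4 members (10.3%, against 4.49% of all promoters). For the G-box (CACGTG) the members numbered 3 (7.69%, against 6.49%), and for CCAATC 4 (10.3%, against 10.2%). In 18369 promoters of genes tested, the shares were 22.6% for site II, 12.5% for the I-box and 3.51% for the telo-box. The G-box had 7.61% there and CCAATC 10.4%. No chance test was made of these shares. In 21 of the 39 the window overlaps an exon of a neighbouring gene.

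The 80 bases just before the start are shown for the 2 members separated by at least 2-fold, for the second PRPL19 gene, and for AT5G24490, the member most uneven among controls. They are read 5′ to 3′ on the gene's strand in RefSeq assembly TAIR10.1, with site II (first 3) or I-box (last) letters, on either strand, in capitals.
PSRP2, chr3:19341934-19342013, plus strand: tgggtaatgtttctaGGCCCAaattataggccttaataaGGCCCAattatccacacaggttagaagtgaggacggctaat
PRPL19 (AT5G47190), chr5:19166136-19166215, minus strand: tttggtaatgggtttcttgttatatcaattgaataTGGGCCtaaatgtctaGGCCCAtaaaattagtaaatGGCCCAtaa
PRPL19 (AT4G17560), chr4:9780144-9780223, plus strand: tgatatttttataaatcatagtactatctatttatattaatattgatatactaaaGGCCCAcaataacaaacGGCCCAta
AT5G24490, chr5:8365521-8365600, plus strand: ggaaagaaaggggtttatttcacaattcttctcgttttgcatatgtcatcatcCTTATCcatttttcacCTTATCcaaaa
Both PRPL19 copies thus hold site II letters within the last bases before the start, and PSRP2 holds 2 matches. The AT5G24490 stretch holds 2 I-box matches and no site II letters. A match describes letters and not a bound site.

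The partners of these proteins in plastid translation were examined next. Of 11 nuclear genes for plastid translation factors and ribosome assembly, 0 passed the test, 5 were separated above the controls and 1 below, and the median log2 difference was 0.41. That median was 0.74 after median-of-ratios scaling and 0.66 after quantile normalization. Over all genes tested, 9.59% were separated above and 25.7% below. APG3 (AT3G62910), for a peptide chain release factor, stood at 46.7, 52.8 and 45.2 FPKM in doxycycline seedlings and 29.5, 21.2 and 23.7 FPKM in control seedlings (log2 difference 0.94, SE 0.19, adjusted p = 0.121). RRF (AT3G63190), for the factor that recycles ribosomes, stood at 166, 164 and 153 FPKM against 95.9, 46.0 and 65.4 FPKM (log2 difference 1.27, SE 0.28, adjusted p = 0.126). In both genes all doxycycline libraries exceeded all controls. Initiation factor gene FUG1 (AT1G17220) was the 1 separated below, with a log2 difference of -0.30. Differences in this list against controls 1 to 3 had medians of 0.38, 0.54 and 0.35, so the controls stood closer together than for the ribosomal protein genes.

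Ribosomal proteins encoded in the plastid genome join the nuclear ones in the same particles. Of 26 identifiers, which include both copies of repeated genes, 18 reached 1 FPKM on average and 0 passed the test. Their median log2 difference was 0.08, with 2 separated above and 1 below the controls, beside 9.59% and 25.7% of all genes. The median depended on the settings, at 0.36 and 0.45 under median-of-ratios and quantile scaling, and at -0.26, 0.72 and -0.23 without control 1, 2 or 3. Medians against controls 1 to 3 were 0.61, -1.16 and 0.77, so the median difference from control 2, the lowest library for every nuclear member, was below 0 here. ATCG01310 stood at 2.39, 3.92 and 2.01 FPKM in doxycycline seedlings and 8.16, 8.77 and 8.06 FPKM in control seedlings (log2 difference -1.34, SE 0.25, adjusted p = 0.121). ATCG00810 stood at 18.8, 13.9 and 13.5 FPKM against 7.66, 10.9 and 5.43 FPKM (log2 difference 0.89, SE 0.28, adjusted p = 0.143). Both were separated, in opposite directions. The other gene separated above was ATCG01020, with a log2 difference of 1.49 (SE 0.48, limma adjusted p = 0.148). It stood at 350, 264 and 325 FPKM in doxycycline seedlings and at 245, 63.6 and 84.8 FPKM in control libraries 1 to 3. The median level of the 18 genes was 6.38 FPKM, against 306 FPKM for the nuclear members. How RNA was selected, which matters for plastid transcripts without long poly(A) tails, was not given in the sources used here, and identical copies may share reads.

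Short lists of genes for other ribosomes gave small median differences whose sign depended on scaling. They hold the genes matched by product and symbol in the annotation, and not every protein of these ribosomes. The 8 measured nuclear genes listed for mitochondrial ribosomal proteins had a median of -0.22 and the 15 listed for cytosolic ones -0.17. These medians became 0.06 and 0.16 after median-of-ratios scaling. Before that scaling, 1 mitochondrial gene, the RPS14 gene given below, lay above 0 and 7 lay below. For the cytosolic list 6 lay above 0 and 9 below, beside 30.2% of all genes above 0. Of the mitochondrial genes 1 was separated above and 3 below the controls, and of the cytosolic genes 0 above and 2 below, beside 9.59% of all genes above and 25.7% below. RPS14 (AT2G34520) of the mitochondrial ribosome averaged 46.7 ± 3.53 FPKM in doxycycline seedlings, against 31.2 ± 7.49 FPKM in control seedlings (SD, n = 3 each), a log2 difference of 0.59 (adjusted p = 0.160), and AT5G40080 had -0.52 (adjusted p = 0.167). RPS13A (AT4G00100) of the cytosolic ribosome averaged 173 ± 2.51 against 313 ± 94.2 FPKM (log2 difference -0.80, adjusted p = 0.149), and RPL23AB (AT3G55280) had -0.78 (adjusted p = 0.227). Neither list had a member past the threshold, and no test was made of the difference between lists.

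**Figure D4:**
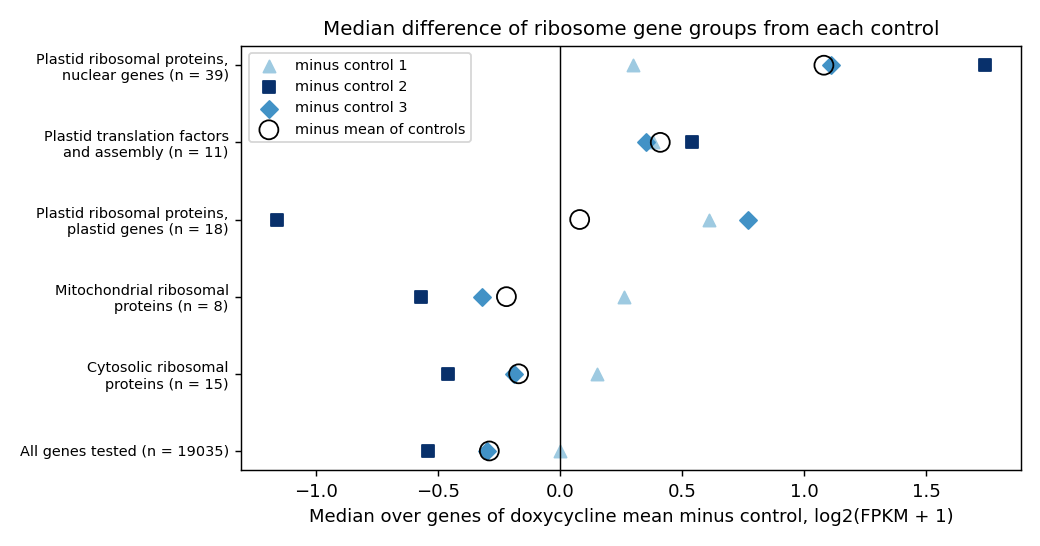
Median over each gene group of the doxycycline mean minus each control (triangle, square and diamond for controls 1 to 3) and minus the mean of the controls (open circle), on the log2(FPKM + 1) scale. The nuclear genes of plastid ribosomal proteins lie at 0.30, 1.74 and 1.11 against controls 1 to 3, while plastid-encoded ones lie at 0.61, -1.16 and 0.77.

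Markers of organs and dividing cells varied between the libraries as well. The 7 shoot and leaf markers summed to 24961 to 31054 FPKM in doxycycline seedlings and to 28480, 13192 and 23519 FPKM in control libraries 1 to 3, with none at 0. Control 2 had the lowest sum, to which RBCS1A adds most in every library, and was the lowest of the 6 libraries in 4 of the 7 markers. Over the 7 shoot and leaf markers, 5 had a log2 difference above 0 and 2 below, with a median of 0.25. LHCB1.1 (AT1G29920), a light-harvesting gene, was the 1 shoot marker separated above the controls (log2 difference 1.50, limma adjusted p = 0.221). CA1 (AT3G01500) had 0.57 (adjusted p = 0.344), and RBCS1A (AT1G67090), for the small subunit of Rubisco, had 0.15. The 2 below 0 were RCA (AT2G39730) at -0.01 and FAMA (AT3G24140) at -0.18. The 9 root markers summed to 24.6 to 35.3 FPKM in doxycycline seedlings and to 12.6, 29.7 and 67.8 FPKM in control seedlings, with none at 0. Of the 8 root markers tested, 2 had a log2 difference above 0 and 6 below, with a median of -0.24 and 0 separated. TIP2;3 (AT5G47450), a root aquaporin, had the lowest p of the root list (log2 difference 1.26, limma adjusted p = 0.176), though its groups overlapped. PRP3 (AT3G62680) had the next lowest, with a log2 difference of -1.31 (adjusted p = 0.288). The 5 markers of dividing cells summed to 41.9 to 47.8 FPKM in doxycycline seedlings and to 36.5, 64.8 and 28.0 FPKM in control seedlings, with CYCA1;1 (AT1G44110) separated above them (log2 difference 0.69, adjusted p = 0.171) and CDKB2;2 (AT1G20930) below (-0.66). Of all genes tested, 9.59% were separated above the controls and 25.7% below. The part of organ makeup in the ribosomal protein result was not tested.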

How the data were processed

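Per the labels' protocols, seedling RNA came from a TRIzol extraction and the library kit was VAHTS Universal V6. The authors deposited 1 table of FPKM values with a column per library. TopHat2 2.1.0, Cufflinks 2.2.1 and genome build TAIR10 are named in the submitters' processing notes, with no role given. The unit was read from the values, since the header names none. Strand handling and the treatment of reads shared by copies: not given in the sources used here. FPKM is relative to the library's total.

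Depth was estimated by scaling low values of single-model genes of at least 600 bases to whole fragments. Of these values 50.4% to 62.8% were whole within 0.08 fragments, where chance gives 16%, so no count model was used.

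Values were analysed as log2(FPKM + 1), which understates differences of low genes, for the 19035 genes whose mean reached 1 FPKM. Doxycycline was compared with control by limma 3.58.1 in R 4.3.3 (two-sided, variance trend, without covariates), and p-values were adjusted by Benjamini-Hochberg over these genes. With 3 libraries against 3, an exact permutation test cannot go below a two-sided p of 0.1. The 3 libraries of a condition are called biological replicates in the design text, and p-values measure the spread between them.

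Names came from RefSeq assembly TAIR10.1, in which all 39 members were found and whose nuclear chromosomes carry the TAIR10 sequence. Plastid identifiers are not paired there, and membership of that list came from general knowledge. Mitochondrial and cytosolic ribosomal genes were taken by product and symbol, so these lists are partial.

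The members and lists were chosen with earlier results of these data known. Any member could be named, and given in full were those with the lowest p of each subunit group (up to 8, 6 and 5), the highest and lowest difference, the gene copies, and from other lists the 2 genes with the lowest p. PRPL24, PRPL29, PRPS9, AT5G24490 as the most uneven member, the promoter stretches and other genes of the related lists were picked after their values were seen. AT5G24490 was counted with the small subunit, following its annotation, which does not say whether it is plastid-specific. Counted as plastid-specific, the medians would be 1.10 for 9 small-subunit and 1.01 for 6 plastid-specific genes. The sample labels number the replicates without stating a pairing, so the numbers were not taken as pairs. Alternatives were other pseudocounts and filters, both scalings named in the text, robust variances, a replicate block and leaving out each library.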

Additional observations from a re-analysis of the deposited data

How the results depend on the processing

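All 39 member differences kept their direction under quantile normalization, where the lowest was 0.12. The other settings with all libraries kept in could hardly turn a sign. No filter, a minimum mean of 5 FPKM, robust variances and the replicate block leave each difference as it was and change only its error and adjusted p. Pseudocounts of 0.1 and 0.01 barely move genes at these levels, and median-of-ratios scaling shifted all members upward by nearly the same amount. With 1 library left out, PRPL10 ranged over -0.18 to 0.45 and PRPS17 over -0.06 to 0.64, below 0 without control 2, and the cause was not tested. Leaving out 1 library gave 0 to 8637 genes past the threshold, 0 to 34 of them members, where the highest counts are those without control 1. It gave 31 to 36 members above every control, beside 10.5% to 15.9% of all genes tested, and a member median of 0.74 to 1.42. The 36 were those without control 1, beside 15.9%. The replicate block gave 0 members and 0 genes past the threshold, as did the fit without it. Deviations from the group means in same-numbered libraries had correlations of 0.00, -0.01 and -0.14 across genes. These values cannot show whether such libraries were handled together, and the numbers were not taken as pairs. The medians of translation factors became 0.74 (median-of-ratios) and 0.66 (quantile), and those of mitochondrial and cytosolic ribosomal proteins 0.06 and 0.16 (median-of-ratios). With 1 library left out, the medians ranged over -0.26 to 0.72 for plastid-encoded and -0.33 to 0.03 for cytosolic ribosomal proteins, and the cause was not tested.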
